A study of Rattus norvegicus with 23 samples.

Results

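The endothelial genes described here are 10 genes of the vessel lining, split into 7 endothelial identity genes (Pecam1, Cdh5, Kdr, Flt1, Tek, Tie1 and Vwf) and 3 leukocyte adhesion molecules (Vcam1, Icam1 and Sele). A probe set was taken as a member when the array annotation gave one of these symbols as its single gene. This found 9 probe sets, 1 for each of 9 genes, among 15310 probe sets with 1 symbol and 29170 in all. No probe set carried Vwf as its single symbol, so its values are not given here. The list was chosen by function, but with measured values of these hearts in view, those of Vcam1 in diabetes exposed against high fat (HF) diet exposed hearts and of Tie1 in combination exposed against HF diet exposed hearts. Both contrasts are therefore described without a test.

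RNA of 23 whole hearts from newborn Sprague Dawley rats, of both sexes and aged 1 postnatal day, was hybridized to Affymetrix Rat Gene 1.0 ST arrays, 1 heart per array. Controls (n = 7) came from dams on control diet that received citrate buffer on gestational day 14. Diabetes exposed hearts (n = 6) came from dams on control diet that received 65 mg/kg streptozotocin, which destroys pancreatic beta cells and so lowers insulin, on the same day. HF diet exposed hearts (n = 5) came from dams on HF diet with citrate buffer, and combination exposed hearts (n = 5) from dams with both HF diet and streptozotocin. Diets started at least 28 days before mating and went on through pregnancy, pups were delivered on gestational day 22, and diabetic dams were given insulin toward a glucose range of 200 to 400 mg/dl, so hyperglycemia began late and was only partly controlled.

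Endothelial cells line the coronary vessels and the endocardium. Kdr and Flt1 are their receptors for vascular endothelial growth factors, Tek binds the angiopoietins and Tie1 is its orphan partner, while Cdh5 and Pecam1 hold neighboring endothelial cells together. Vcam1, Icam1 and Sele are displayed on activated endothelium, where selectin contacts slow passing leukocytes and Vcam1 and Icam1 bind their integrins. The transcription factor NF-kB is known to turn all of these adhesion molecules on. Vcam1 is also made by cells of the developing heart wall, outside the endothelium.

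In the deposited table each probe set is centred on its median over the 23 hearts, so a value is a log2 distance from that median. Levels cannot be read, genes cannot be ranked by abundance, and whether the endothelial markers were present above background could not be checked from these values. In whole-heart RNA, fewer endothelial cells and less RNA per endothelial cell cannot be told apart. The SD over all probe sets of an array ran from 0.16 to 0.393 and was widest in combination heart 1. The sample labels hold a code, and 19 different code stems occur. HF diet hearts 3, 4 and 5 share 1 stem, combination hearts 1 and 2 share another and combination hearts 4 and 5 have one of their own. If a stem stands for a dam, which is not stated, hearts of the same stem are littermates, and a p-value covers no more than the variation among the hearts hybridized. One control heart, control heart 1, stood apart for leukocyte markers, with a mean of 1.29 over 13 genes against -0.090 to 0.17 in the other control hearts.

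A gene was called when limma gave an unadjusted p under 0.05 and a log2 difference of more than 0.32, up or down, which is the fold threshold of the study's own analysis. Among the 9 measured members, 1 was called in combination against control, where 3.31% of all 29170 probe sets were called. This was Sele, higher in combination exposed hearts. In the same comparison 3 members (Sele, Tie1 and Cdh5) had an unadjusted p under 0.05, beside 9.9% of all probe sets. Against diabetes, 1 member was called in combination exposed hearts beside 3.04% of all probe sets. This was Vcam1, higher in the combination. The interaction of diabetes and HF diet, which asks whether the effect of the diet differs between diabetic and non-diabetic pregnancies, passed the same threshold for 1 member beside 4.34% of all probe sets. This was Tie1, whose interaction of -0.37 equals combination against HF diet (-0.37) less diabetes against control (0.0021). It repeats the contrast known when the list was chosen and is therefore a description. In diabetes against control limma called 0 members (0.305% of all probe sets) and 0 had an unadjusted p under 0.05 (1.61%). In HF diet against control it called 0 members (0.943%) and 0 had an unadjusted p under 0.05 (2.67%), and the methods' t-test called 0 in both. None of these calls passed Benjamini-Hochberg adjustment over all probe sets. The lowest adjusted p of a member was 0.495, for Sele and for Tie1 in combination against control in limma. Exact permutation tests of each member in the 4 pairwise comparisons gave 3 of 36 two-sided p-values under 0.05. After adjustment over the 36, 0 remained. The 3 were Sele in combination against control, and Vcam1 and Tie1 in combination against diabetes. The results for Vcam1 and Tie1 share hearts with the contrasts known when the list was chosen. They are not independent of those contrasts, and neither is the limma call of Vcam1.

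**Figure D1:**
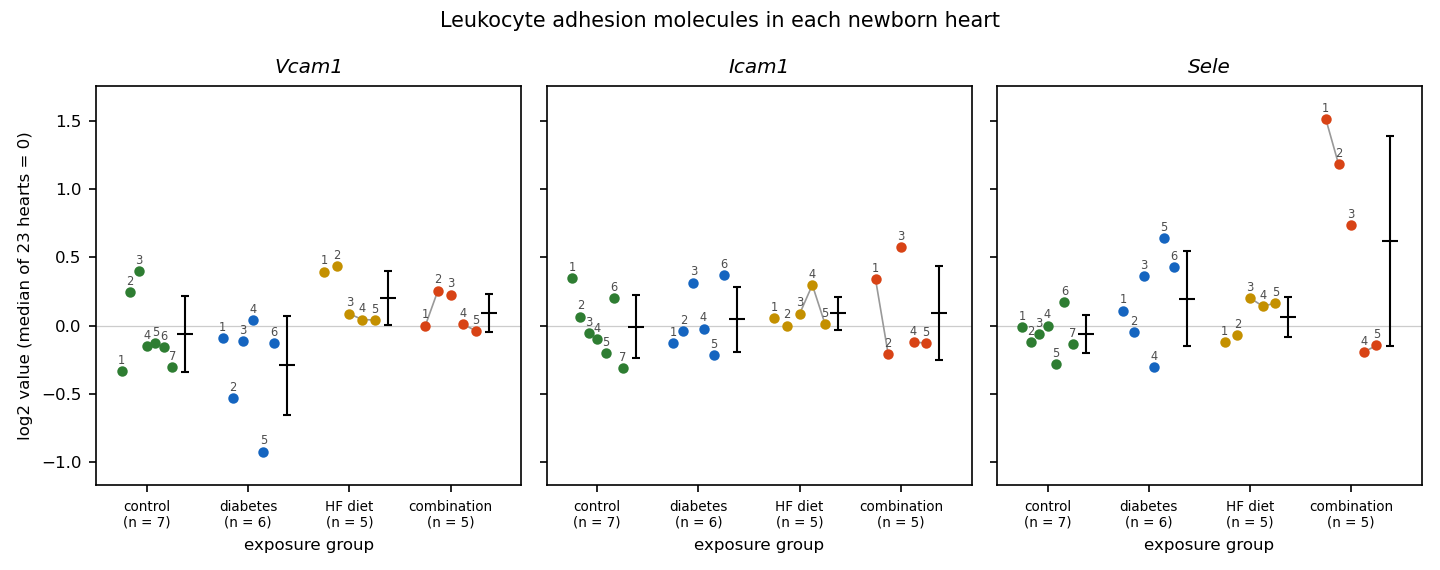
Log2 value, relative to the median of the 23 hearts, of Vcam1, Icam1 and Sele in every heart (points, numbered by replicate) of the 4 exposure groups (x axis), with group mean and SD as black bars and gray lines joining hearts with the same code stem. All 6 diabetes exposed hearts lie below all 5 HF diet hearts for Vcam1, and combination hearts 1, 2 and 3 lie above every control for Sele while hearts 4 and 5 do not.

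Vcam1 (probe set 10826249), the adhesion receptor for leukocytes that carry alpha 4 integrin, had its lowest group mean in diabetes exposed hearts and its highest in HF diet hearts. By medians the controls, not the diabetes exposed hearts, were lowest. Control hearts ran from -0.33 through a median of -0.15 to 0.40. Diabetes exposed hearts ran from -0.92 through a median of -0.12 to 0.040. The 5 HF diet hearts stood at 0.40, 0.44, 0.088, 0.046 and 0.042. Hearts 1 and 2, which share no stem with another heart, were the highest, and the 3 hearts of the shared stem lay close together. The 5 combination hearts stood at 0, 0.26, 0.23, 0.011 and -0.037. All 6 diabetes exposed hearts were below all 5 HF diet hearts, a separation seen in 0.182% of all probe sets, at a log2 difference of -0.49 (standard error 0.15). This contrast bears on how the members were chosen and is given as a description. The margin was narrow, since diabetes heart 4 at 0.040 nearly met HF diet heart 5 at 0.042.

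In the combination, Vcam1 was 1.30-fold higher than in diabetes exposed hearts, at 0.092 ± 0.14 (SD, n = 5) against -0.29 ± 0.36 (SD, n = 6). The log2 difference was 0.38 (standard error 0.15, 95% interval 0.064 to 0.70), with unadjusted p = 0.0207 and adjusted p = 0.528 in limma and an exact permutation p of 0.0346. All 5 combination hearts were above the diabetes median, and 2 of 5 were above every diabetes exposed heart. This comparison uses the same diabetes exposed hearts as the contrast behind the choice of the gene, so it is not independent of it. Diabetes heart 5, at -0.92, carried much of the difference. Without it the log2 difference was 0.26, and without combination heart 2 it was 0.34, and in neither case was Vcam1 called. The methods' t-test did not call it either.

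Neither single exposure moved Vcam1 from control past the threshold. Diabetes exposed hearts lay at a log2 difference of -0.23 (standard error 0.14, 95% interval -0.52 to 0.063) and HF diet hearts at 0.26 (standard error 0.15, 95% interval -0.045 to 0.57). The first shrank to -0.10 without diabetes heart 5, and the second rose to 0.34 and was called without control heart 3. Control hearts 2 and 3, at 0.25 and 0.40, lay within the range of the HF diet hearts, so the groups overlapped. The effect of HF diet was 0.26 without diabetes and 0.38 with it, and the interaction of 0.12 (standard error 0.21) was short of the threshold.

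The RefSeq sequence upstream of Vcam1 is printed because Vcam1 is the member that differed most between the single exposures, and a classical target of NF-kB. It covers the 250 bases before the annotated start, chr2:206742784-206743033 of the GRCr8 build on the minus strand, and lies wholly outside the annotated gene. The capitals mark a match to the NF-kB consensus, whose first base stands 93 bases before the start.

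Vcam1: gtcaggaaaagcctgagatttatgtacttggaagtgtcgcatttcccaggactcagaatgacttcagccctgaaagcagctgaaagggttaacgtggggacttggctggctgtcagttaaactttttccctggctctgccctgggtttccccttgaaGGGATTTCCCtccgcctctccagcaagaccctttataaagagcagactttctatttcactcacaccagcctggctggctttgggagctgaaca

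The upstream window of Vcam1 also holds TATAAA, 60 bases before the start. Over 33469 RefSeq promoters, 6.33% have an NF-kB consensus match in their 250 upstream bases on either strand and 12.9% have TATAAA on either strand. Entries were at hand for 6 of the 10 members, the others being Pecam1, Cdh5, Tek and Vwf. The windows of Sele and Flt1 lie wholly inside the annotated gene. Those of Icam1, Kdr and Tie1 do so by 157, 32 and 66 of the 250 bases. The NF-kB consensus matched in 3 of the 6 windows, those of Vcam1 and of the identity genes Kdr and Flt1. It had no match in those of Icam1, Sele and Tie1, so it did not set the adhesion molecules apart. TATAAA occurred in 3, those of Vcam1, Icam1 and Flt1. These matches describe letters in windows and say nothing of binding in these hearts.

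Icam1 (probe set 10908319), the ligand of the beta 2 integrins, differed from control by less than the spread between hearts in each exposure. Its mean was -0.0059 ± 0.23 (SD, n = 7) in controls and 0.047 ± 0.24 (SD, n = 6) after exposure to diabetes. HF diet hearts averaged 0.091 ± 0.12 (SD, n = 5) and combination hearts 0.092 ± 0.35 (SD, n = 5). The 5 combination hearts stood at 0.34, -0.21, 0.57, -0.12 and -0.13, on both sides of the control median. The 95% intervals of the differences from control ran from -0.22 to 0.32 for diabetes, from -0.19 to 0.38 for HF diet and from -0.19 to 0.38 for the combination, so a change of the size of the threshold remained within each interval. The highest control value, 0.35, belonged to control heart 1, the heart with high leukocyte markers, whose part in it was not tested.

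Sele (probe set 10765173), or E-selectin, which is made almost only by activated endothelium, was 1.60-fold higher in combination exposed hearts than in controls. Control hearts ran from -0.28 through a median of -0.061 to 0.17. The 5 combination hearts stood at 1.51, 1.18, 0.74, -0.19 and -0.14. The first 3 lay above every control heart and the last 2 below the control median, so the group was split. The log2 difference was 0.68 (standard error 0.22, 95% interval 0.22 to 1.14), with unadjusted p = 0.00561 and adjusted p = 0.495 in limma and an exact permutation p of 0.0391. The split followed the code stems, with hearts 1 and 2 on one, heart 3 on another and hearts 4 and 5 on the last. With hearts of 1 stem averaged first the difference was 0.70 and Sele was still called.

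The call for Sele depended on how the uneven spread was treated. The methods' t-test, which lets each group have its own variance, did not call it (SD 0.77 in combination and 0.14 in control hearts). With array weights in limma the difference fell to 0.37 and was not called. Without combination heart 1 it was 0.46, and the call was kept when any single heart was left out. Other values were also higher in combination hearts 1, 2 and 3 than in hearts 4 and 5. The mean of 9 erythroid probe sets (8 genes, Rhag with 2) was 0.21, 1.37 and 0.48 in combination hearts 1, 2 and 3. It was -0.13 and -0.47 in hearts 4 and 5, and -0.81 to 0.27 in controls. With that erythroid mean as a covariate the Sele difference was 0.52 and still called. The mean of 13 leukocyte markers was 0.17, 0.35 and 0.41 in the first 3 combination hearts and -0.12 and 0.0021 in the others. In control hearts it ran from -0.090 to 1.29. The array SD was 0.393, 0.309 and 0.260 in the first 3 combination hearts against 0.164 and 0.161. The part of leukocyte content and array spread in the difference was not tested.

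Sele was also uneven in diabetes exposed hearts, which ran from -0.30 through a median of 0.24 to 0.64. Diabetes hearts 3, 5 and 6 lay above every control. The log2 difference from control was 0.26 (standard error 0.21), with an exact permutation p of 0.0927. HF diet hearts stood at -0.12, -0.069, 0.20, 0.14 and 0.17, with the 3 hearts of the shared stem the highest. Combination exceeded diabetes by 0.42 (standard error 0.23, adjusted p = 0.547 in limma), short of the threshold. It was called without diabetes heart 5 (0.51), combination heart 4 (0.62) or combination heart 5 (0.61), and shrank to 0.20 without combination heart 1 and to 0.28 without combination heart 2. Against HF diet the difference was 0.55 (standard error 0.24), or 0.33 without combination heart 1, given without a test.

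**Figure D2:**
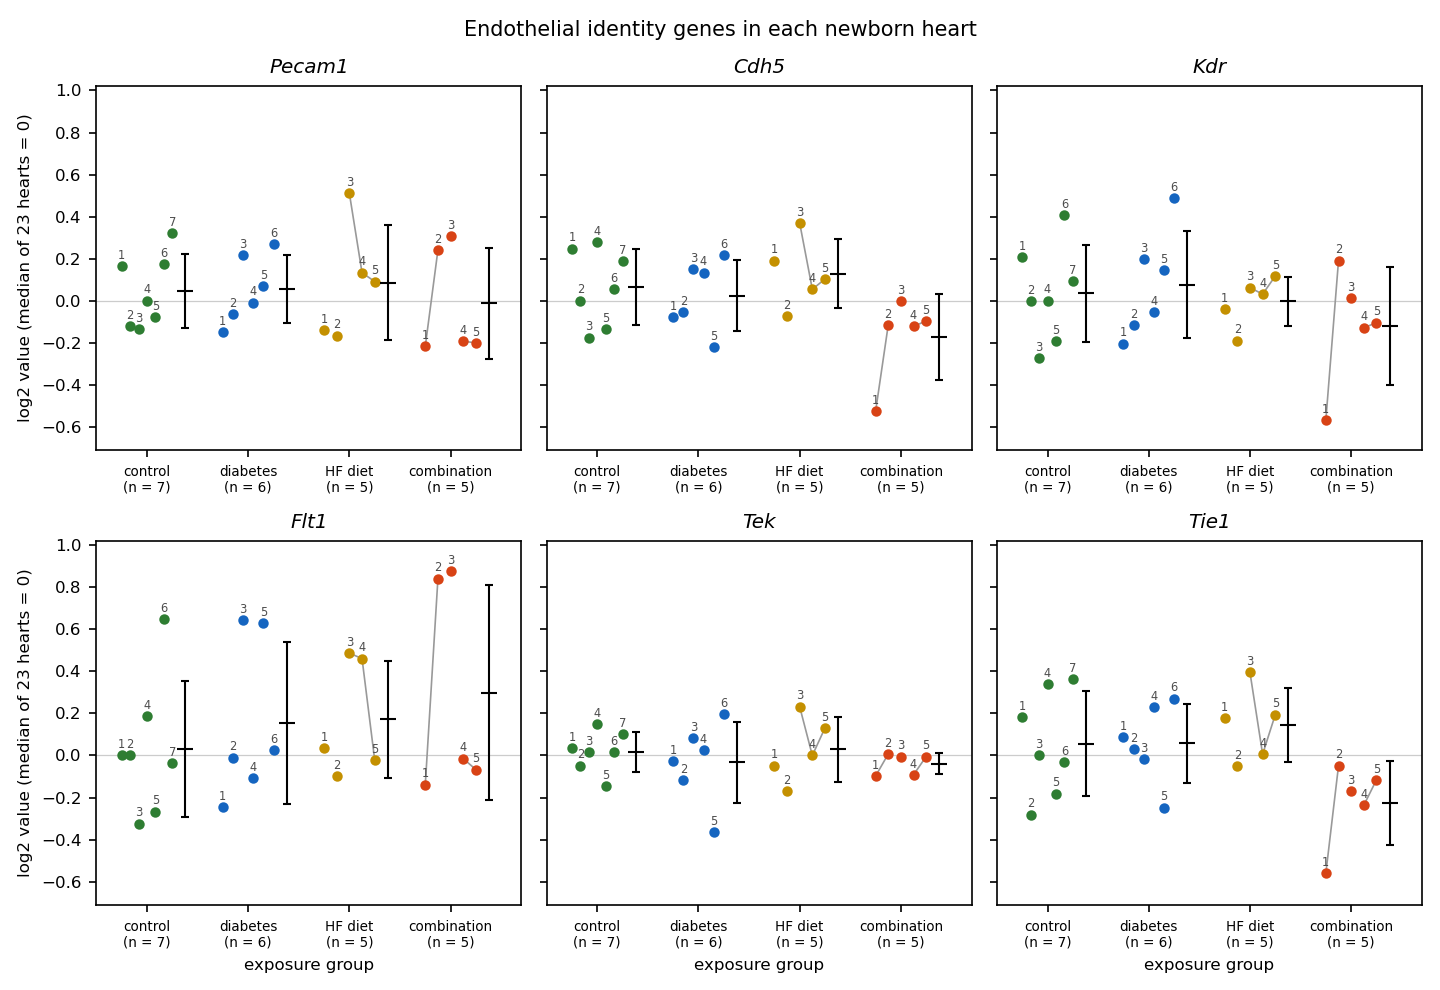
Log2 value, relative to the median of the 23 hearts, of the 6 measured endothelial identity genes in every heart (points, numbered by replicate) of the 4 exposure groups (x axis), with group mean and SD as black bars and gray lines joining hearts with the same code stem. All 5 combination hearts lie below 0 for Tie1 and Cdh5, with heart 1 the lowest in both, while Flt1 leaves a gap between 16 hearts at 0.19 or lower and 7 hearts at 0.46 or higher.

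No endothelial identity gene was called in either single exposure or in the combination against control. Of all probe sets, 0.305% (diabetes), 0.943% (HF diet) and 3.31% (combination) were called. The median difference of the 6 measured genes was 0.0056 in diabetes against control, 0.052 in HF diet against control and -0.11 in combination against control. Over all probe sets these medians were -0.00017, 0.013 and 0.0018. In combination against control 5 of 6 identity genes had a negative difference, and all 5 combination hearts lay below the control median for 3 of them, Cdh5, Tek and Tie1. Of the 6, 2 (Tie1 and Cdh5) had an unadjusted p under 0.05 in limma, beside 9.9% of all probe sets.

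Tie1 (probe set 10879278), the orphan receptor that pairs with Tek, showed the lowest values in the combination. Control hearts ran from -0.28 through a median of 0 to 0.36. The 5 combination hearts stood at -0.56, -0.049, -0.17, -0.24 and -0.12, all below the control median and 1 below every control heart. The log2 difference was -0.28 (standard error 0.12, 95% interval -0.53 to -0.037), with unadjusted p = 0.0261 and adjusted p = 0.495 in limma and an exact permutation p of 0.0669. Its fold of 1.22 was short of the threshold. Without control heart 2 the difference was -0.34 and without combination heart 2 it was -0.33, and both were called. Without combination heart 1 it was -0.20. These combination hearts are also those of the contrast with HF diet that was known when the list was chosen, so neither this comparison nor the next is independent of it.

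Against diabetes exposed hearts, which ran from -0.25 through a median of 0.058 to 0.27, Tie1 was lower by the same amount. The log2 difference was -0.28 (standard error 0.12, adjusted p = 0.528 in limma), with an exact permutation p of 0.0368, and again short of the fold. It was called without diabetes heart 5 (-0.35) or combination heart 2 (-0.33), and shrank to -0.20 without combination heart 1. The HF diet hearts stood at 0.18, -0.052, 0.40, 0.0060 and 0.19. Combination hearts were below them by 0.37 (standard error 0.13), with 4 of 5 under every HF diet heart. Tie1 in that contrast stands in a supplementary table of the study, so it is given without a test.

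The effect of HF diet on Tie1 had opposite signs in the layers of the design. Without diabetes, HF diet hearts lay 0.089 above controls, and with diabetes the diet lay at -0.28. The difference of these effects, the interaction, was -0.37 (standard error 0.17). Nearly all of it is the contrast of combination with HF diet, so no test is given. It fell short of the threshold in 16 of 32 alternatives, with values from -0.43 to -0.27 and the same sign in each. Among them were the code stem as a random block (-0.36), array weights (-0.27) and leaving out combination heart 1 (-0.29).

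Cdh5 (probe set 10809048), the cadherin of endothelial junctions, followed Tie1 closely. The 5 combination hearts stood at -0.53, -0.12, -0.0040, -0.12 and -0.097, and control hearts ran from -0.18 through a median of 0.055 to 0.28. The log2 difference from control was -0.24 (standard error 0.10, adjusted p = 0.496 in limma), with an exact permutation p of 0.0606 and a fold of 1.18, short of the threshold. Combination heart 1 was the lowest of the 23 hearts, and without it the difference was -0.15. Against diabetes the difference was -0.20 (standard error 0.11, adjusted p = 0.546 in limma). Against HF diet it was -0.30 (standard error 0.11), given without a test.

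Tek (probe set 10869946), the angiopoietin receptor, varied least of the members. The 5 combination hearts lay between -0.098 and 0.0070. The difference from control was -0.056 (standard error 0.082, adjusted p = 0.812 in limma), and its 95% interval began at -0.23, short of the called size. Among diabetes exposed hearts, heart 5 was lowest at -0.37, the same heart that was lowest for Vcam1, Cdh5, Tie1 and Icam1 in that group.

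Pecam1 (probe set 10940659), a junctional immunoglobulin protein found on endothelium and also on leukocytes and platelets, gave small differences. Its largest difference from control was -0.059 (standard error 0.12), in the combination, whose hearts stood at -0.22, 0.24, 0.31, -0.19 and -0.20. The 2 positive hearts were numbers 2 and 3, as for Flt1. HF diet hearts stood at -0.14, -0.17, 0.51, 0.13 and 0.091, with the 3 hearts of the shared stem above the other two.

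Kdr (probe set 10940650), the main signaling receptor for vascular endothelial growth factor A, was not called in any comparison. Combination hearts stood at -0.57, 0.19, 0.011, -0.13 and -0.11, with heart 1 again far below the rest. The log2 difference from control was -0.15 (standard error 0.13, adjusted p = 0.662 in limma), and -0.042 without combination heart 1. Diabetes exposed hearts ran from -0.20 to 0.49 and controls from -0.27 to 0.41, so the groups covered nearly the same range.

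Flt1 (probe set 10756418), the receptor that binds vascular endothelial growth factor A tightly and also exists as a soluble trap, was split within every group. Values of 16 hearts ran from -0.32 to 0.19 and those of the other 7 from 0.46 to 0.88, with no heart between. The higher set held 1 of 7 control, 2 of 6 diabetes, 2 of 5 HF diet and 2 of 5 combination hearts. Its relation to exposure was not tested. This gap was chosen after the values were seen. Combination hearts stood at -0.14, 0.84, 0.88, -0.015 and -0.067, and hearts 1 and 2, which share a stem, lay on opposite sides of it. The difference of combination from control was 0.27 (standard error 0.21, adjusted p = 0.636 in limma), and the effect of HF diet was 0.14 both without and with diabetes.

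**Figure D3:**
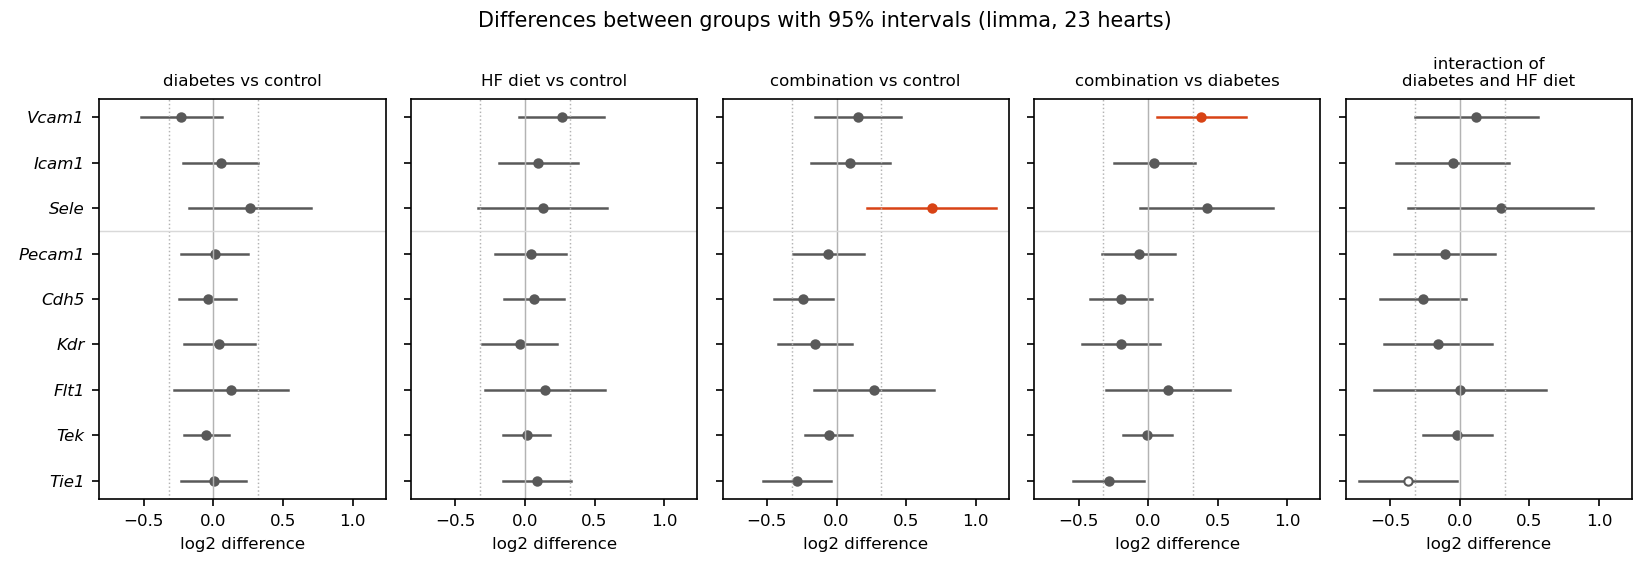
Log2 differences (points) with 95% intervals (lines) of the 9 measured members in the 5 tested comparisons of 23 hearts in limma, adhesion molecules above and identity genes below the gray rule, with dotted lines at the fold threshold (0.32 on the log2 scale). Colored points passed the fold and the unadjusted p, namely Sele at 0.68 in combination against control and Vcam1 at 0.38 in combination against diabetes, and the open point, Tie1 at -0.37 in the interaction, repeats the contrast known at the choice of the list and is not tested.

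The members differed widely in how much hearts of 1 group varied. The pooled SD within groups was 0.409 for Sele and 0.379 for Flt1, higher than in 96.9% and 96.0% of the 15310 probe sets with 1 symbol. Vcam1 (0.267), Icam1 (0.245), Kdr (0.231), Pecam1 (0.216) and Tie1 (0.209) lay above the median of 0.171 over those probe sets. Cdh5 was near it at 0.179 and Tek below it at 0.136. The limits on what could be seen therefore differed between members, with standard errors of the combination to control difference from 0.082 for Tek to 0.22 for Sele.

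Within the groups, the identity genes other than Flt1 went up and down together from heart to heart. No pair of an identity gene with an adhesion molecule passed the test. Each heart's deviation from its group mean was correlated between members over the 23 hearts, with permutation of hearts within groups and adjustment over all 36 pairs. Because Flt1 falls into separate sets of hearts, its pairs are given apart. Of the 10 other identity pairs, all 10 had a positive r, with a median of 0.63, and 7 passed an adjusted p under 0.05 by Pearson and by Spearman. Among 15 pairs of an identity gene with an adhesion molecule the median r was 0.043, from -0.24 to 0.38, and 0 passed. The lowest unadjusted permutation p among them was 0.147 by Pearson, for Tek with Icam1, and 0.0196 by Spearman, for Pecam1 with Sele. Pairs with Sele depended on combination heart 1, without which r rose from 0.38 to 0.59 for Pecam1 and from 0.15 to 0.50 for Kdr. Over all 23 hearts the rho of Sele was 0.54 with Pecam1 and 0.52 with Kdr (adjusted permutation p = 0.0683 for each). It was 0.26 with Tek, 0.045 with Cdh5 and -0.057 with Tie1. The 3 pairs of adhesion molecules had r of 0.35 (Icam1 and Sele), 0.16 (Vcam1 and Icam1) and -0.14 (Vcam1 and Sele), with 0 passing.

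**Figure D4:**
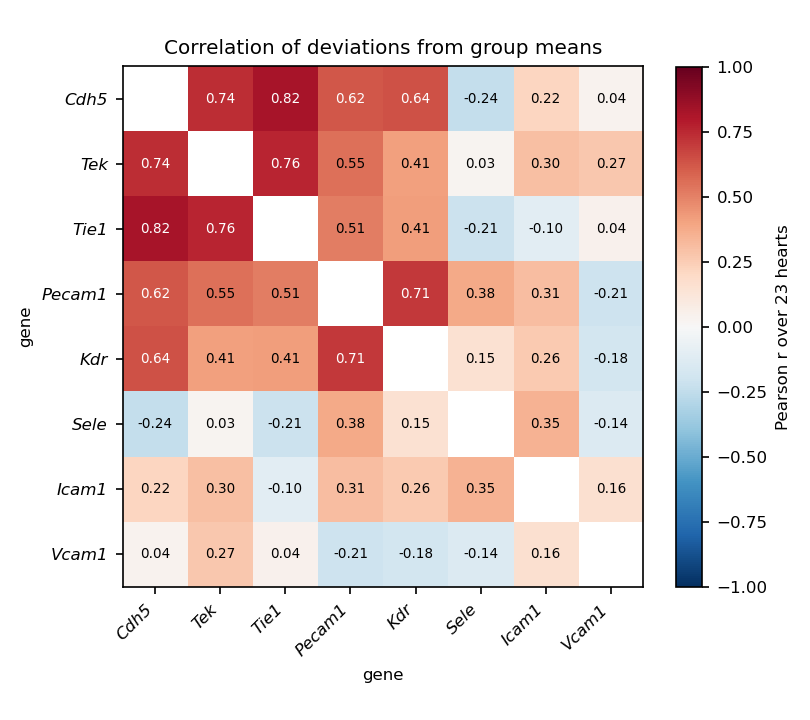
Pearson correlation over 23 hearts of deviations from the group means for each pair of 8 members (both axes), Flt1 left out, on a color scale from -1 to 1. Cdh5, Tek and Tie1 form the darkest block, with r from 0.74 to 0.82, and the rows of Sele, Icam1 and Vcam1 are pale, between -0.24 and 0.38.

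Cdh5, Tek and Tie1 formed the tightest set. Cdh5 and Tie1 had r = 0.82 and rho = 0.81 (permutation p = 9e-05 and 0.00012, adjusted p = 0.0009 and 0.000864), and r = 0.75 without the 2 hearts farthest from the median. Tek and Tie1, receptors of the same complex, had r = 0.76 and rho = 0.79 (permutation p = 2e-05 and 4e-05, adjusted p = 0.00036 and 0.00072), and r = 0.72 without the 2 farthest hearts. Cdh5 and Tek had r = 0.74 and rho = 0.78 (permutation p = 1e-05, the smallest the 100000 permutations can give, and 7e-05, adjusted p = 0.00036 and 0.00084), and r = 0.75 without the 2 farthest hearts. Leaving out combination heart 1 kept these between 0.78 and 0.79.

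Pecam1 and Kdr formed a second close pair, with r = 0.71 and rho = 0.79 (permutation p = 0.0001 and 1e-05, adjusted p = 0.0009 and 0.00036), and r = 0.78 without the 2 farthest hearts. Kdr went less with Tie1 (r = 0.41, adjusted p = 0.218; rho = 0.39, adjusted p = 0.19). Flt1 went with Kdr on both sides of its gap, at r = 0.56 over the 16 lower hearts and 0.76 over the 7 higher ones. With Pecam1 r was 0.53 in the lower and -0.025 in the higher hearts, and with Sele it was 0.089 and 0.39. With Cdh5, Tek and Tie1 it was 0.66, 0.36 and 0.44 in the lower hearts. In the higher hearts it was -0.020, -0.15 and -0.072, so Flt1 did not follow these genes there. These values for Flt1 are a description, with no test.

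Correlations of this kind also occurred outside the endothelial genes. Among 15309 other probe sets with 1 symbol, 10.2% had an r above 0.5 with Cdh5, 6.49% with Tie1, 5.90% with Tek, 6.84% with Kdr and 4.91% with Pecam1. Above 0.7 the shares were 3.02%, 0.719%, 0.562%, 1.18% and 0.529% in the same order. Of the measured members, 4 had an r above 0.5 with Cdh5, 3 with Tie1 and 3 with Tek. The share above 0.5 was 7.38% for Sele, 3.45% for Icam1 and 0.914% for Vcam1, and 0 members passed 0.5 with any of these. The 23 points share the array processing and in part a code stem. The genes whose values over the 23 hearts, group differences included, were most like the mean of the 6 identity genes were Pi4ka, a phosphatidylinositol kinase (r = 0.95), Lamc1, a laminin chain of basement membranes (0.94), Sec24a, a coat protein of secretory vesicles (0.91), Col4a1, a basement membrane collagen (0.89), and Insr, the insulin receptor (0.89). Both widely expressed and vascular genes were among them.

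Vcam1 had other neighbors. Over the 23 hearts its values were most like those of Pcdh18, a protocadherin (r = 0.79), Bmp10, a growth factor of atrial and trabecular heart muscle (0.74), Mybphl, a myosin-binding protein of atrial muscle (0.72), Atp1b4, a muscle protein of the sodium pump beta family (0.70), and Ankrd53, an ankyrin repeat protein (0.69). These are ranks among all 1-symbol probe sets, given as a description. Spearman's rho was 0.86 for Pcdh18 and 0.56 for Bmp10.

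Genes of the same pathways that are not members were followed as lists. Among 31 other endothelial identity genes, 1 was called higher and 2 lower in combination against control, a share of 9.68% beside 3.31% of all probe sets, and 14 of 31 differences were positive. Called were Aplnr, the apelin receptor, at a log2 difference of -0.53 (standard error 0.20), Nrp2, a coreceptor of vascular endothelial growth factors, at -0.34 (standard error 0.15), and Procr, the protein C receptor, at 0.33 (standard error 0.12). The median of the list was -0.017. In HF diet against control, where 0.943% of all probe sets were called, 1 was called, Gpihbp1, which carries lipoprotein lipase onto capillary endothelium, at -0.57 (standard error 0.19). In diabetes against control 0 were called (0.305% of all probe sets) and 0 had an unadjusted p under 0.05 in limma (1.61%).

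Of 8 ligands of the endothelial receptors, 1 was called higher and 1 lower in combination against control, beside 3.31% of all probe sets. Angpt1, the activating ligand of Tek, was lower at a log2 difference of -0.56 (standard error 0.24, adjusted p = 0.496 in limma). Pgf, placental growth factor and a ligand of Flt1, was higher at 0.48 (standard error 0.23, adjusted p = 0.502 in limma). In diabetes and in HF diet against control 0 of the 8 were called in limma (0.305% and 0.943% of all probe sets). In both, 0 had an unadjusted p under 0.05 in limma (1.61% and 2.67% of all probe sets).

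On the leukocyte side, 0 of 11 integrins and other ligands of the adhesion molecules were called in combination against control, beside 3.31% of all probe sets. Of these 11, 0 had an unadjusted p under 0.05 in limma, beside 9.9% of all probe sets. In HF diet against control 1 was called beside 0.943% of all probe sets, Itgal, the alpha chain of the Icam1 receptor, at -0.43 (standard error 0.17). Control heart 1 had a mean of 0.82 for this list against at most 0.034 in the other control hearts, and its part in that value was not tested. Of 10 other vascular adhesion molecules 0 were called in any of the 5 tested comparisons, where 0.305% to 4.34% of all probe sets were called. They had 1 unadjusted p under 0.05 in limma, in combination against control (9.9% of all probe sets). Of 21 genes of the NF-kB pathway and cytokine response 1 was called, beside 3.31% of all probe sets, Nfkbib, an inhibitor of NF-kB, higher in combination against control at 0.43 (standard error 0.18). The mean of this list was 0.30, 0.066 and 0.32 in combination hearts 1, 2 and 3 and -0.13 and -0.075 in hearts 4 and 5. Control hearts ran from -0.10 to 0.17 and diabetes exposed hearts from -0.062 to 0.26. Combination heart 2 thus lay within the control range, unlike for Sele. The part of this list in the Sele difference was not tested.

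Markers of other cell types were read in the same way for combination against control, where 3.31% of all probe sets were called. Of 13 leukocyte markers 1 was called, S100a8, a calcium-binding protein of neutrophils, higher at 0.35 (standard error 0.17). The list as a whole did not go with it, since 6 of 13 differences were positive and the median was -0.049. Among erythroid markers, Ahsp, which stabilizes alpha hemoglobin, was called higher at 1.38 (standard error 0.43). Of the 9 erythroid probe sets 9 had a positive difference, with a median of 0.44. They stand for 8 genes, since Rhag has 2 probe sets with equal group means. Pericyte and smooth muscle (11 probe sets), fibroblast (10), epicardial (6) and cardiomyocyte (10) markers had 0 calls in that comparison. They had 1, 3, 0 and 1 unadjusted p under 0.05 in limma, beside 9.9% of all probe sets. Fibroblast markers had 2 of 10 positive differences and a median of -0.11, close to that of the 6 identity genes, and cardiomyocyte markers had 1 of 10 and a median of -0.051. The mean of the cardiomyocyte list ran from -0.28 to 0.013 in combination and from -0.11 to 0.10 in control hearts. Whether a shift in cell makeup had a part in the lower Tie1 and Cdh5 was not tested.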

How the data were processed

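The authors scanned the arrays, normalized them in GeneSpring GX and deposited log2 values for 29170 probe sets by 23 hearts, each probe set centred on its median; their normalization algorithm and quality limits: not given in the sources used here. Each heart was taken as 1 replicate of the exposure its label gives. The values were used as deposited, with no filter on dim probe sets, since centring removes the level. Centring cancels in differences between groups. One mean per group was fitted to all probe sets with limma 3.58.1 (lmFit and eBayes, R 4.3.3), with 3.56 prior and 19 residual degrees of freedom and Benjamini-Hochberg adjustment over 29170 probe sets. limma replaced the methods' t-test because groups held 5 to 7 arrays; that test is an alternative, beside array weights, quantile normalization, array centring, blocks for replicate number and code stem, an erythroid covariate, other sets of probe sets or groups, robust eBayes and each heart left out. The number of arrays limits the precision.

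Exact permutation tests, two-sided, enumerated all splits of the hearts of 2 groups. Pair correlations used deviations from group means and 100000 permutations within groups. All members were named. From each related list at most the 4 called genes with the smallest p per comparison were named, and for Vcam1 and the identity mean the 5 most alike genes. Members and lists were chosen with earlier results of these data known, so no test over a list was made. Contrasts of HF diet with diabetes and with the combination are descriptions. Entrez identifiers of all 9 measured members matched the RefSeq table (GRCr8). Scripts were tested on simulated data. Python 3.11.15 with pandas 2.3.3, numpy 2.4.6, scipy 1.17.1 and matplotlib 3.10.9 was used.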

Additional observations from a re-analysis of the deposited data

Results flagged for a closer look

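Combination heart 1 lay apart from the other combination hearts for Cdh5, at -0.527 against -0.122 to -0.004. It was 1 of 36 sets of member and group in which the gap to the nearest heart was past the critical value of Dixon's test, and chance flags about 5% of such sets. The same heart had the widest array SD, 0.393, and the part of that spread in its Cdh5 value was not tested.

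For Tie1 the effect of HF diet was 0.089 (standard error 0.12) without diabetes and -0.28 (standard error 0.12) with it. The interaction was -0.373 on the log2 scale. It nearly equals the contrast of combination with HF diet (-0.37) known when the list was chosen, so it is no independent test. It is given as a description without a p-value, and it fell short of the threshold in 16 of 32 alternatives.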

How the results depend on the processing

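Over the 7 comparisons and 9 members, 2124 single values under an alternative were computed. Of these 2095 kept their side of the threshold or, in the contrasts given without a test, moved by less than the spread between hearts. Among them 111 had the other sign, for differences that were short of the threshold. The others were 21 that fell short of the threshold and 8 that newly passed it, and 0 reversed a call. The number of members called in combination against control fell from 1 to 0 with the methods' t-test and with array weights, and ran from 1 to 2 when single hearts were left out. In combination against diabetes it fell from 1 to 0 with the methods' t-test and ran from 1 to 2. The interaction, for which the methods' t-test and a fit of the compared groups alone could not be run, fell from 1 to 0 with array weights, quantile normalization, the code stem as a random block and hearts of 1 stem averaged, and ran from 0 to 1. In HF diet against control leaving out hearts gave 0 to 1 and in diabetes against control 0. With single hearts left out, the median difference of the members ran from -0.11 to -0.0094 in diabetes against HF diet and from -0.15 to -0.017 in combination against HF diet. With hearts of 1 stem averaged these medians were -0.0013 and -0.0010, and with the erythroid covariate the second was -0.16. The cause of these shifts was not tested. Deviations of same-numbered hearts correlated from -0.42 to 0.56, with 7 of 31 pairs over 0.1. Differently numbered hearts were not correlated for comparison, so whether replicate numbers pair the hearts was not tested. A replicate block left the counts at 1 in combination against control (Sele 0.72), at 1 in combination against diabetes (Vcam1 0.38) and at 1 in the interaction (Tie1 -0.42). With the values centred, signal over background could not be read, so dim probe sets were not set apart.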
